A study of Mus musculus with 4 samples.

Results

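Of 10 cytokine genes examined in BA/F3 cells (Il6, Osm, Lif, Il4, Il13, Csf1, Csf2, Tnf, Il1b and Tgfb1), 3 gave RNA signal clearly above background: Il6, Osm and Tgfb1. The 10 genes were represented by every probe set of the array annotated with exactly 1 of these symbols, 15 of 45101 in all. No probe set was selected on its values, but the genes were chosen with earlier results of these data known. The array names 18193 genes in this way. Of the 15, 3 had a mean of at least 4 on the log2 scale over the 4 libraries, the level required for testing, and 12 did not. The name "cytokines made by BA/F3 cells" therefore held at the RNA level for 3 of the 10 genes, and the other 7 had no probe set that reached the filter. No cytokine protein was measured.

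BA/F3 is an established mouse hematopoietic line that grows in interleukin 3 and is widely used as an early B cell model. Both cell populations received mifepristone, the inducing agent, at 32.5 pM for 16 h. By title, source name and genotype, 2 libraries came from BA/F3 cells carrying an inducible human ETV6-RUNX1 (TEL-AML1) transgene, and 2 from BA/F3 control cells without it. ETV6-RUNX1 is a fusion of the transcription factors ETV6 and RUNX1 found in childhood B cell leukemia. The design text calls the controls empty vector lines. Whether a line was 1 clone, and which promoter drove the transgene, is not given in the sources used here. The question is which RNA levels change when the fusion is expressed.

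The labels conflict for replicate 1. By the description field, the replicate 1 library with an ETV6-RUNX1 title is a control and the replicate 1 library with a control title expresses the fusion. For replicate 2 the field and the titles agree. Every difference below is therefore given by title and by description, and the replicate 2 pair, on which all labels agree, is given beside them. The correlation between libraries over the 17720 tested probe sets was highest within the description pairs (Pearson r of 0.972 and 0.966). It was lowest within the title pairs (0.947 and 0.931). Between the 2 libraries of the same replicate number it was 0.953 for replicate 1 and 0.960 for replicate 2. The human transgene was not measured as such by these mouse probe sets. Nothing in the labels says that replicates came from separate cultures, so the p-values rest on a spread that may be technical.

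Cytokines are secreted proteins that signal through receptors on the same or neighbouring cells. IL-6, oncostatin M (Osm) and leukemia inhibitory factor (Lif) form a family that signals through the shared receptor chain gp130, encoded by Il6st, and activates STAT3. IL-4 and IL-13, encoded by adjacent genes, share receptor chains, act through STAT6 and are typical products of mast cells, basophils and type 2 T cells. M-CSF (Csf1) and GM-CSF (Csf2) drive growth and differentiation of myeloid cells, tumor necrosis factor (Tnf) and IL-1 beta (Il1b) start inflammatory responses, and transforming growth factor beta 1 (Tgfb1) restrains lymphocyte growth. Many cytokine genes are silent until NF-kB, AP-1, C/EBP or NFAT factors are activated, and RUNX proteins bind regulatory DNA of several of them.

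Upstream sequences of 4 of the 5 members that hold a motif of such a factor are given first, because ETV6-RUNX1 binds DNA through the RUNX domain and because Il6 is a textbook target of NF-kB, AP-1 and C/EBP. Promoters in the RefSeq table (GRCm38.p6) were matched by symbol for 9 of the 10 genes, and the 250 bases before the annotated start were searched on both strands. The motifs were TGTGGT for the RUNX core, GGANTTTCC for NF-kB, TGANTCA for AP-1 and TTNNGNAAT for C/EBP, and no matches overlapped in the sequences printed. Among 32851 promoters of the same length, 14.05% held the RUNX core, 1.065% the NF-kB motif, 6.75% the AP-1 motif and 10.16% the C/EBP motif. Capitals mark the matches, and each sequence runs 5′ to 3′ on the strand of the gene.
Il6, chr5:30012864-30013113, plus strand: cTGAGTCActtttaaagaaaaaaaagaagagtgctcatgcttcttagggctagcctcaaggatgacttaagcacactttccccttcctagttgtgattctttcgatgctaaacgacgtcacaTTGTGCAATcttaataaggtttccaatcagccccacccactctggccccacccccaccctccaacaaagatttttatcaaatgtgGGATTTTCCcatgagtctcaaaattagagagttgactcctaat
Csf1, chr3:107760470-107760719, minus strand: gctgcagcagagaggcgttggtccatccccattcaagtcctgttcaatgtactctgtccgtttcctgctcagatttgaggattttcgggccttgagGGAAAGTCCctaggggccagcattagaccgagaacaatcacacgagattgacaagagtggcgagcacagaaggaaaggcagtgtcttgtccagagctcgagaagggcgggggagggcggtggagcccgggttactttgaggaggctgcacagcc
Lif, chr11:4257318-4257567, plus strand: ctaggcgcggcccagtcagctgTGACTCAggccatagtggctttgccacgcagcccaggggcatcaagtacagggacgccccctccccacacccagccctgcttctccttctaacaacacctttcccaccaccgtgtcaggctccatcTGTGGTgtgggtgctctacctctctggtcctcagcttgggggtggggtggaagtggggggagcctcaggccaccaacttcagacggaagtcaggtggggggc
Il13, chr11:53634703-53634952, minus strand: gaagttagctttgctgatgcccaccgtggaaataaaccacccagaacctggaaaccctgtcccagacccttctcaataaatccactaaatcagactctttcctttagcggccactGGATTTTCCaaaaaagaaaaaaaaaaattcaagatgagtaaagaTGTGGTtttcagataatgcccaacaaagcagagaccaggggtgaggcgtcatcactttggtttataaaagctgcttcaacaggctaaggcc

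In the Il6 sequence the capitals mark, from left to right, AP-1, C/EBP and NF-kB matches that begin 249, 128 and 43 bases before the start. The Csf1 sequence holds 1 NF-kB match, on the other strand, 154 bases before the start. The Lif sequence holds an AP-1 match at 228 bases and a RUNX core at 102 bases, and the Il13 sequence an NF-kB match at 135 bases and a RUNX core at 91 bases. The Il1b sequence, not printed, holds 1 C/EBP match at 91 bases. These are letter matches and not binding measurements. Il6 was read far above the floor in all 4 libraries, whereas Csf1, Lif, Il13 and Il1b lay near it in all 4, as described next. Of the members without a match, Tgfb1 read 7.22 to 7.37 at 1 probe set, while Il4, Csf2 and Tnf lay near the floor. Osm was the gene without a matched promoter. The part of these motifs in the RNA levels was not tested.

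The deposited values are log2 signals made with GCRMA, a method that subtracts probe-specific background, and the lowest value on the array, 2.23, forms a floor shared by all libraries. A value within about 0.5 of that floor is a background reading and carries no measured level. Levels of different probe sets depend on the probes and were not ranked against each other. In the plot of the 15 cytokine probe sets, 3 probe sets stand to the right of the filter and 12 near the floor.

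**Figure D1:**
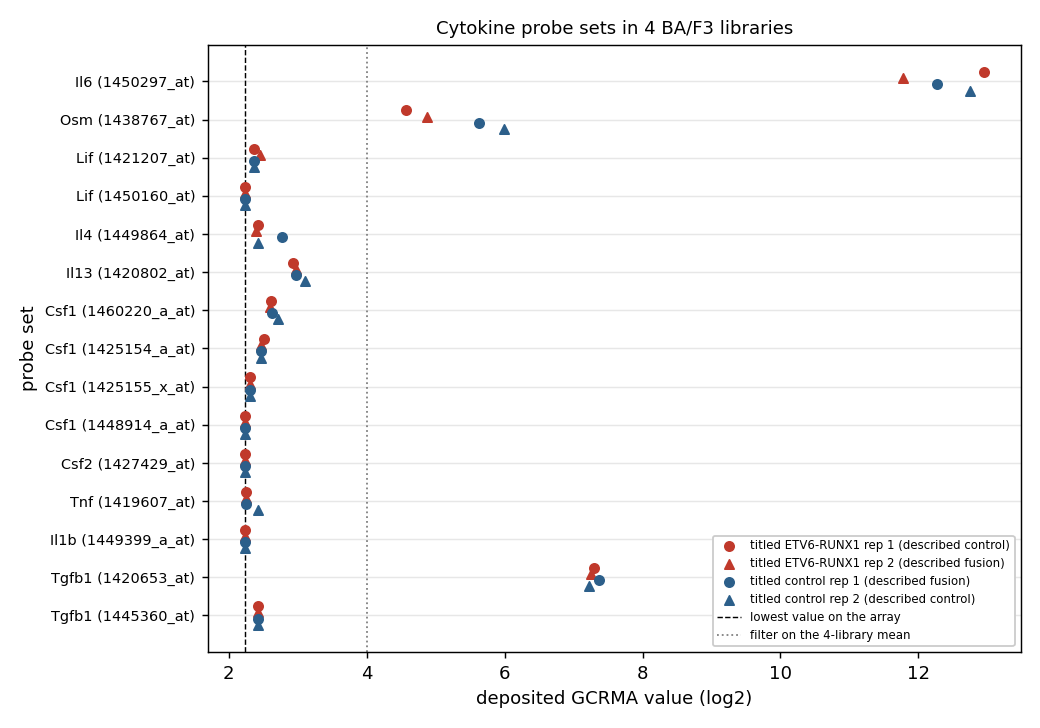
Deposited GCRMA values (log2, x axis) of the 15 cytokine probe sets (y axis) in the 4 libraries, coloured by title, with circles for replicate 1 and triangles for replicate 2. The dashed line is the array's lowest value (2.23) and the dotted line the filter (4). Il6, Osm and 1 Tgfb1 probe set lie above the filter in all 4 libraries, and the other 12 probe sets lie between 2.23 and 3.10.

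Il6, which encodes the pleiotropic cytokine IL-6, an inducer of the acute phase response and of plasma cell growth, was read at its single probe set (1450297_at). In the libraries titled ETV6-RUNX1 it had log2 values of 12.94 in replicate 1 and 11.77 in replicate 2. In the libraries titled control it had 12.26 in replicate 1 and 12.75 in replicate 2. All 4 values were at least 9.54 above the floor, so Il6 RNA was read in every library under either labelling. In bulk RNA of this kind, fewer cells making a cytokine and less of its RNA per cell cannot be told apart. By title the groups overlapped completely, because the highest and the lowest value both belonged to libraries titled ETV6-RUNX1.

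By title the mean of Il6 was 12.36 ± 0.83 (SD, n = 2) with the fusion and 12.50 ± 0.34 without it. The difference was -0.15 (SE 0.48, 95% interval -1.52 to 1.23, limma adjusted p = 1). It was 0.68 within replicate 1 and -0.98 within replicate 2, so the replicates pointed in opposite directions. By description the groups did not overlap. Il6 averaged 12.02 ± 0.35 under the fusion description and 12.85 ± 0.14 under the control description. The difference of -0.83 (SE 0.21, 95% interval -1.43 to -0.23), or 1.78-fold lower, did not pass the threshold (limma adjusted p = 0.19, unadjusted p = 0.019). Over all tested probe sets, 25.1% were lower without overlap by description and 9.14% were lower at an unadjusted p under 0.05, so many probe sets shared this behaviour.

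Markers of mast cells and basophils differed along the same split as Il6, in the opposite direction, though 0 of 5 tested passed in either grouping. At an unadjusted limma p under 0.05 there were 0 by title and 2 by description, where 0.282% and 19.7% of all tested probe sets qualified. All 5 tested markers of 9 on the array had a higher mean under the fusion description, 4 of them without overlap, where 50.4% of all tested probe sets did not overlap. The mean log2 value over the 9 was 7.16 and 5.97 in the pair described as fusion-expressing, against 4.44 and 4.19 in the pair described as control. Kit and Tpsb2, defining genes of mast cells, lay at the floor in all 4 libraries. The 3′ minus 5′ signal of the dap labelling spike was also larger in the pair described as fusion-expressing, at 3.71 and 4.43 against 3.10 and 3.19. The lys and thr spikes went the same way, but the phe spike did not. It overlapped at the PheX probe sets (1.08 and 1.30 against 1.13 and 1.17). At the r2-Bs-phe probe sets it was lower (0.48 and 0.55 against 0.56 and 0.64). That of beta-actin RNA was 0.64 and 0.63 against 0.70 and 0.63. The part of the markers and of the spikes in the Il6 difference was not tested.

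Osm, which encodes oncostatin M, a product of activated myeloid and T cells that STAT5 is known to induce, was read at its single probe set (1438767_at). The libraries titled ETV6-RUNX1 had log2 values of 4.58 and 4.88 in replicates 1 and 2, and the libraries titled control had 5.63 and 5.99. Both libraries titled ETV6-RUNX1 were therefore lower than both titled control, and all 4 were between 2.34 and 3.75 above the floor. Background correction can distort differences at low signal, so a fold from these values is not a calibrated one.

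By title the mean of Osm was 4.73 ± 0.21 (SD, n = 2) with the fusion and 5.81 ± 0.26 without it. The difference was -1.08 (SE 0.28, 95% interval -1.87 to -0.29), or 2.11-fold lower, and it did not pass the threshold (limma adjusted p = 1, unadjusted p = 0.020). The difference was -1.05 within replicate 1 and -1.11 within replicate 2, where all labels agree. In the array as a whole, 34 of 17720 tested probe sets, 0.192%, were at least 2-fold lower by title without overlap, and 16, 0.0903%, were at least 2-fold lower within both replicate numbers. Osm was in both counts, and its unadjusted p ranked 12 among the 17720. By description the Osm groups overlapped, at 5.25 ± 0.53 against 5.28 ± 0.998, a difference of -0.03 (SE 0.60, 95% interval -1.74 to 1.69, limma adjusted p = 0.99).

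Of the 2 tested macrophage and monocyte markers, 1 did not overlap by title, where 10.7% of all tested probe sets did not. This was Cd68, a macrophage and lysosome marker, which was lower by title as Osm was. It read 7.88 and 8.61 in the libraries titled ETV6-RUNX1 against 8.65 and 8.92 in those titled control. The other tested marker, Adgre1, overlapped, at 5.53 and 5.30 against 4.37 and 7.37 in the same order of libraries. The macrophage and monocyte list as a whole overlapped, with a mean log2 value over its 6 genes on the array of 3.91 and 3.98 against 3.84 and 4.59. Cd14 and Marco lay at the floor in all 4 libraries, and Csf1r gave 3.29 in each. The part of these markers in the Osm difference was not tested. The 3′ minus 5′ signal of beta-actin overlapped between the title groups, at 0.70 and 0.63 against 0.64 and 0.63. That of the transferrin receptor overlapped too, at 1.31 and 4.53 against 3.87 and 4.38. Its lowest value, 1.31, was in ETV6-RUNX1 replicate 1 by title, the library with the lowest Osm. The part of this signal in the Osm difference was not tested.

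**Figure D2:**
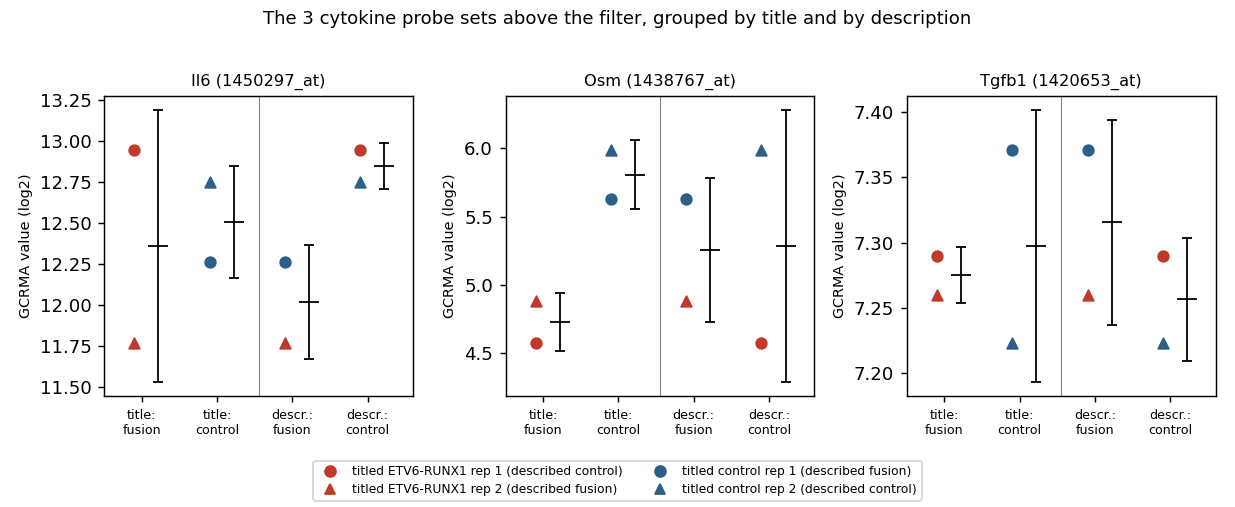
GCRMA values (log2, y axis of each panel, each with its own range) of Il6, Osm and Tgfb1 in the 4 libraries, grouped on the left of each panel by title and on the right by description. Coloured symbols are libraries, and black bars are the group mean ± SD (n = 2). Osm separates by title (4.73 against 5.81), Il6 by description (12.02 against 12.85) and Tgfb1 by neither.

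Tgfb1, which encodes a latent growth factor that is stored bound to its propeptide, was read above the floor at 1 of its probe sets (1420653_at). This probe set had log2 values of 7.29 and 7.26 in the libraries titled ETV6-RUNX1 and 7.37 and 7.22 in the libraries titled control. Its range of 0.15 over the 4 libraries was small, since 4.83% of the tested probe sets had a smaller one. The range of Il6 was 1.18 and that of Osm 1.41, against a median of 0.71 over all tested probe sets. The title difference of Tgfb1 was -0.02 (SE 0.24, 95% interval -0.72 to 0.68) and the description difference 0.06 (SE 0.17, 95% interval -0.43 to 0.55), both with overlapping groups and neither past the threshold (limma adjusted p = 1 and 0.89). The interval reaches further than the 4 values do because limma draws the spread of each probe set toward that of others. The other Tgfb1 probe set (1445360_at) read 2.43 in all 4 libraries, so the probe sets of Tgfb1 disagree on whether its RNA is detected.

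Across the tested members, 0 of 3 passed an adjusted p of 0.05 by title, where 0 of 17720 probe sets (0%) did in limma, and 0 of 3 passed by description, where 2 (0.0113%) did. At an unadjusted p under 0.05 there was 1 member by title, Osm, where 0.282% of all tested probe sets qualified, and 1 by description, Il6, where 19.7% did. All 3 members were lower by title, where 52.8% of all tested probe sets were, with a median of -0.15 against -0.01 over all. By description 2 were lower and 1 was higher, where 51.3% of all were lower, with a median of -0.03 against -0.01.

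**Figure D3:**
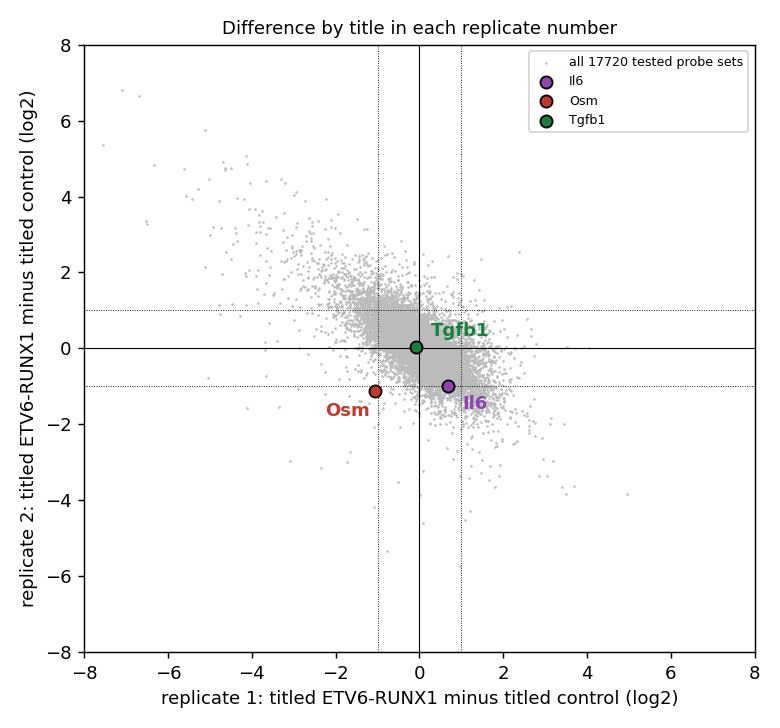
Difference between the library titled ETV6-RUNX1 and the library titled control (log2) within replicate 1 (x axis) and within replicate 2 (y axis). Grey points are the 17720 tested probe sets, large points are Il6, Osm and Tgfb1, and dotted lines mark 2-fold. Osm lies below -1 on both axes (-1.05 and -1.11), Il6 lies at 0.68 and -0.98, and Tgfb1 lies near 0 on both.

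The remaining gp130 family member, Lif, is the next protein-coding gene to Osm and was read at the floor. One Lif probe set (1421207_at) gave 2.37, 2.45, 2.37 and 2.36 in ETV6-RUNX1 replicates 1 and 2 and control replicates 1 and 2, by title. The other (1450160_at) gave the array's lowest value in all 4 libraries. Lif RNA was thus not detected by either probe set, while Osm RNA was read above background.

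The type 2 cytokines Il4 and Il13 were also close to background. Il4, which encodes a B cell and mast cell growth and switch factor, read 2.42 and 2.39 in the libraries titled ETV6-RUNX1 and 2.78 and 2.42 in the libraries titled control. The 2.78 of control replicate 1 was the highest of the 4 and lay 0.54 above the floor. Il13 read 2.94, 2.97, 2.97 and 3.10 in the same order, a range of 0.17, with an identical value in 2 libraries. These values lay 0.70 to 0.87 above the floor, outside the 0.5 taken as background but under the filter. Control replicate 1 is the library with the highest signals for Fcer1a (9.91), the IgE receptor alpha chain, and Cma1 (11.39), mast cell chymase, yet Il4 and Il13 stayed under the filter there.

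The myeloid growth factors were not detected. The 4 Csf1 probe sets read between 2.23 and 2.71, and the highest of these was the 2.71 of control replicate 2 at 1460220_a_at. Csf2, which is next to the interleukin 3 gene Il3, read 2.24 in all 4 libraries. Il3 itself gave the lowest value in all 4. The inflammatory cytokines were at the floor as well, with Il1b at the lowest value in every library and Tnf at 2.26, 2.26, 2.26 and 2.42, the last in control replicate 2. Over the 12 probe sets under the filter, 5 had a single value in all 4 libraries, 11 had a tied value in at least 2, and the largest range was 0.38, so no fold was computed for them.

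Receptor RNA was read above the floor for some of these cytokines and at the floor for others. Of 20 receptor genes listed, 19 were on the array under 1 symbol, 7 were tested, and 10 lay within 0.5 of the floor in all 4 libraries. The gp130 family receptors Il6ra, Il6st, Osmr and Lifr read between 2.23 and 2.25 in every library, so none of these chains was read clearly above the floor. Csf2rb and Csf2rb2, the beta chains used by GM-CSF and interleukin 3 receptors, read 13.41 to 14.78, whereas Csf2ra, the GM-CSF alpha chain, read 2.23 throughout. Csf2rb and Csf2rb2 are near-identical copies, and their probe sets may share signal. Il13ra1, Il13ra2, Il1r1, Il1r2 and Tgfbr3 were also within 0.5 of the floor.

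Of the 7 tested receptor genes, 2 had an unadjusted p under 0.05 by description, where 19.7% of all tested probe sets did. The 2 were the TGF-beta receptors Tgfbr1 and Tgfbr2, and by title there were 0, where 0.282% of all did. Tgfbr1, the kinase that signals to SMAD proteins, read 10.28 and 10.98 in the libraries titled ETV6-RUNX1 and 11.63 and 9.91 in those titled control. Its difference was -0.14 (SE 0.70) by title and 1.21 (SE 0.30) by description (limma adjusted p = 1 and 0.18). Tgfbr2, which binds the ligand first, read 11.54 and 11.82 under ETV6-RUNX1 titles and 11.97 and 11.28 under control titles, with a difference of 0.49 (SE 0.15) by description (limma adjusted p = 0.22). Il4ra, the shared IL-4 and IL-13 receptor chain, differed by 0.85 (SE 0.37) and Il1rap, the IL-1 receptor accessory chain, by 0.47 (SE 0.20) by description. Of the 7 tested receptors 0 passed in either grouping. By description 6 of 7 were higher, with a median of 0.47, and 5 of 7 did not overlap, where 50.4% of all tested probe sets did not. By title 2 of 7 were higher, with a median of -0.17, and 0 of 7 separated, where 10.7% of all did.

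**Figure D4:**
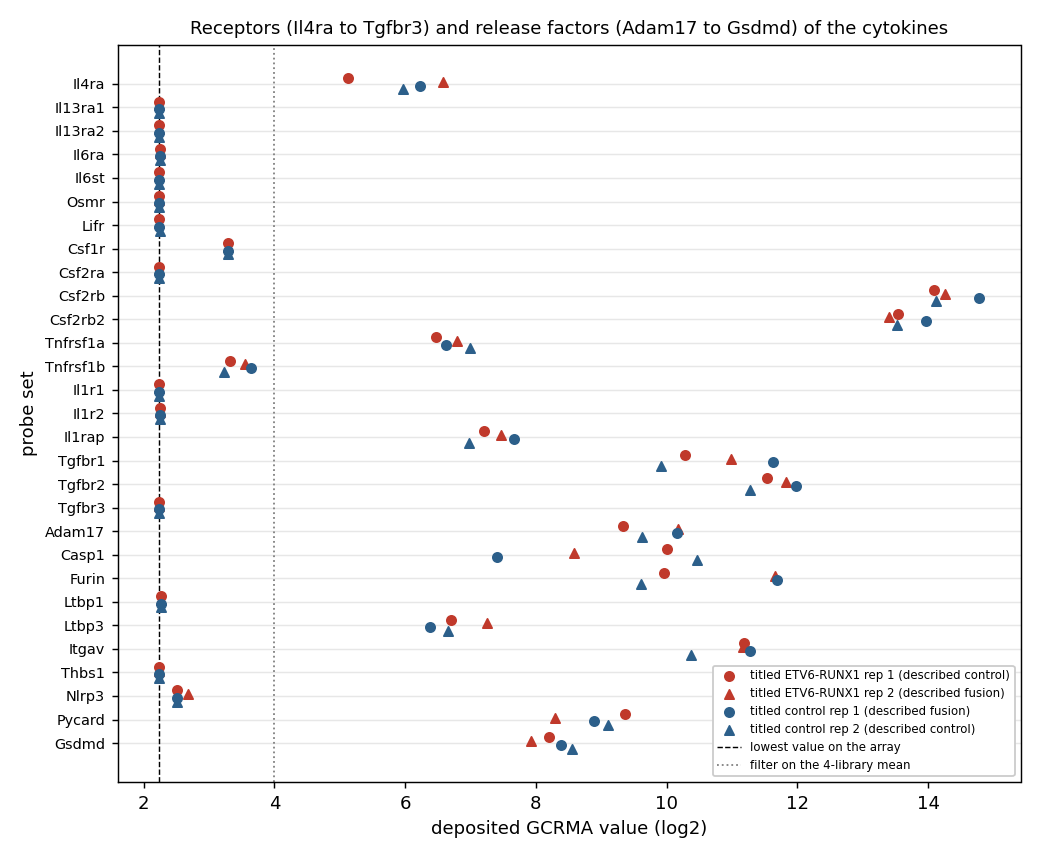
GCRMA values (log2, x axis) in the 4 libraries for the probe set with the highest mean of each receptor gene (Il4ra to Tgfbr3) and of each gene for processing and release (Adam17 to Gsdmd), with colours and symbols by title and replicate. Il6ra, Il6st, Osmr and Lifr lie at the floor (dashed line), and Furin and Casp1 separate by description, by 1.89 and -2.24.

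RNA for most proteins that release or activate the cytokines was read above the filter. Of 11 listed genes 10 were on the array and 7 were tested, and Ltbp1, Thbs1 and Nlrp3 lay near the floor. Furin, the protease that cleaves the TGF-beta 1 precursor, read 9.96 and 11.66 in the libraries titled ETV6-RUNX1 and 11.69 and 9.60 in the libraries titled control. Both libraries described as fusion-expressing were thus higher, by 1.89 (SE 0.17, limma adjusted p = 0.12). Casp1, the protease that matures IL-1 beta, read 10.01 and 8.58 against 7.41 and 10.46 by title, and differed by -2.24 (SE 0.48, limma adjusted p = 0.17) by description. Its substrate gene Il1b was at the floor in all libraries. Adam17, which sheds TNF, differed by 0.68 (SE 0.17, limma adjusted p = 0.18) by description. Pycard, the inflammasome adaptor, differed by -0.65 (SE 0.28) by description. By title 2 of the 7 did not overlap, where 10.7% of all tested probe sets did not. These were Ltbp3, which binds latent TGF-beta, at 0.46 (SE 0.32), and Gsdmd, the pore protein gasdermin D, at -0.41 (SE 0.27). None of the 7 passed in either grouping, with 0 at an unadjusted p under 0.05 by title and 3 by description, where 0.282% and 19.7% of all tested probe sets qualified. The medians were 0.16 by title and 0.14 by description, 4 of 7 being higher in each.

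Regulators of cytokine mRNA stability were tested for 9 of 10 genes on the array. Zfp36l2, which binds AU-rich elements and promotes mRNA decay, read 11.94 and 13.00 in the libraries titled ETV6-RUNX1 and 13.28 and 12.00 in those titled control. By title the difference was -0.17 (SE 0.62). By description it was 1.17 (SE 0.13, limma adjusted p = 0.13), without overlap. Elavl1, which encodes the stabilizing protein HuR, differed by -0.33 (SE 0.14) by description. Zc3h12a, the endonuclease regnase 1 that cuts Il6 mRNA, was within 0.5 of the floor in all libraries. None of the 9 passed in either grouping, with 0 at an unadjusted p under 0.05 by title and 1 by description (0.282% and 19.7% of all tested probe sets), and with medians of -0.04 by title and 0.24 by description.

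Of 28 transcription factors known at cytokine genes 27 were on the array and 19 were tested. None passed in either grouping, with 0 at an unadjusted p under 0.05 by title and 2 by description (0.282% and 19.7% of all tested probe sets). By title 14 of 19 were lower, with a median of -0.16, where 52.8% of all tested probe sets were lower. By description 4 of 19 were lower, with a median of 0.20, where 51.3% of all were lower. By title 4 of 19 did not overlap and by description 8, where 10.7% and 50.4% of all tested probe sets did not. Fos, a subunit of AP-1, was 1 of the 4 by title. It read 5.81 and 6.59 in the libraries titled ETV6-RUNX1 against 7.09 and 7.28 in those titled control. The difference was -0.99 (SE 0.38, limma adjusted p = 1). Cebpb, the C/EBP factor first described at the IL6 gene, read 10.88 to 11.50 over the libraries and differed by 0.46 (SE 0.15, limma adjusted p = 0.23) by description. Runx1, the mouse counterpart of the fused RUNX1 gene, read 7.50 and 8.98 in the libraries titled ETV6-RUNX1 and 8.73 and 8.40 in those titled control, a difference of 0.90 (SE 0.38, limma adjusted p = 0.31) by description. Its paralogue Runx3 differed by -1.48 (SE 0.37, limma adjusted p = 0.18), Stat3 by 0.46 (SE 0.18) and Stat5b, a mediator of interleukin 3 signals, by 0.74 (SE 0.34) by description. Gata3, a driver of type 2 cytokine genes, lay at the floor in all 4 libraries.

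Among 39 other cytokine genes, 35 were on the array, 28 of these lay within 0.5 of the floor in all 4 libraries, and 6 were tested. None of the 6 passed in either grouping, and 1 had an unadjusted p under 0.05 by title and 3 by description, where 0.282% and 19.7% of all tested probe sets did. In each grouping 3 were higher and 3 lower, with medians of -0.21 by title and -0.07 by description. Ltb, lymphotoxin beta, which is next to Tnf in the genome, read 4.82 and 4.69 in the libraries titled ETV6-RUNX1 and 5.32 and 5.51 in those titled control. Its title difference of -0.66 (SE 0.23, limma adjusted p = 1, unadjusted p = 0.047) ran the same way as that of Osm in both replicate numbers. By description Il15, a growth factor for T and NK cells, differed by 1.67 (SE 0.39), Il16, a chemoattractant precursor, by 1.61 (SE 0.28) and Mif, macrophage migration inhibitory factor, by -1.61 (SE 0.28), with limma adjusted p-values of 0.17, 0.15 and 0.15. Ebi3, a subunit of IL-27 and IL-35, differed by -0.47 (SE 0.50) by title and Tnfsf9, the 4-1BB ligand, by -0.43 (SE 0.19) by description.

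The genes nearest in pattern to Il6 and Osm were found by the Euclidean distance between values centred on each probe set's own mean over the 4 libraries, among 15495 tested probe sets with 1 symbol. For Il6 these were Arid1a, a chromatin remodelling subunit, at a distance of 0.063, Vps37a, an endosomal sorting subunit, at 0.066, and Hsp90aa1, a cytosolic chaperone, at 0.083. For Osm they were the deubiquitinase gene Otud4 at 0.17, the complement receptor gene C3ar1 at 0.28 and Svip at 0.29. With 4 libraries, such distances describe these libraries only. Otud4 read 6.02 and 6.33 in the libraries titled ETV6-RUNX1 and 6.99 and 7.22 in those titled control, the same order of libraries as Osm.

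Markers of the other cell types that a culture could hold were mostly at the floor. All 6 T and NK cell genes and all 6 stromal genes on the array lay within 0.5 of the floor in every library. Of 8 B lineage genes on the array 1 was tested, Cd79b at 8.31 to 8.81, while Pax5, Ebf1, Vpreb1, Cd22 and Rag1 were at the floor. Cd79a and Igll1 were under the filter. By title, Cd79a read 2.69 and 4.47 in ETV6-RUNX1 replicates 1 and 2 and 2.89 in both control libraries, and Igll1 read 3.22 throughout. Few of the usual B lineage markers thus reached the filter here.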

How the data were processed

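RNA of 4 BA/F3 libraries, 2 per group, was measured on a mouse 3′ expression array. The authors deposited 1 table of log2 values per probe set, and the submitters' processing notes name GCRMA 2.28.0 as the tool; the range of the values gave the log2 scale. Titles and design text name chromatin immunoprecipitation, but the labels' protocols describe total RNA, so the values were taken as RNA levels. Scanner files and batches were not used here. On arrays the precision is limited by the library number.

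Control probe sets (64) were left out, and probe sets with a mean of at least 4 were tested (17720). Symbols came from the platform annotation: 34958 probe sets had 1 symbol, 932 several and 9211 none. Tests used limma 3.58.1 (R 4.3.3): lmFit, then eBayes with its trend option, two-sided, on 2 residual degrees of freedom. P-values were adjusted by Benjamini and Hochberg's method across every tested probe set, at a threshold of 0.05. The test was checked on simulated data. The probe set with the highest mean stood for a gene in lists. All member probe sets were named, tested or not. Genes named from a list were among the 6 with the smallest p, or lay at the floor or under the filter. For tested members with a range of at least 1, the 3 nearest genes were named. The members and lists were chosen with earlier results of these data known. A fit with the replicate number as a block and fits without each library were among the alternatives.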

Additional observations from a re-analysis of the deposited data

How the results depend on the processing

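No member passed the threshold under any alternative run in either grouping. The count of all probe sets called by title was 0 throughout. By description it was 2, and it became 0 without the filter, 10 with each library centred on its median, 0 with the replicate block and 0 without any 1 library. Osm kept its sign by title in all 10 alternatives that tested it, from -1.26 to -0.90, and was not tested with the filter at 6. Il6 kept its sign by description in all 10, from -1.08 to -0.58, with adjusted p-values of 0.066 (replicate block) to 0.62 (no filter). Leaving out 1 library turned some differences that had not been called. That of Il6 by title ran from -0.73 to 0.44 and turned without fusion replicate 2 or control replicate 2. That of Tgfb1 by title ran from -0.0962 to 0.0514 and turned without control replicate 1. That of Osm by description ran from -0.74 to 0.68 and turned without fusion replicate 2 or control replicate 2. In these fits the lone library is assumed to vary like the others.

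Same-numbered libraries deviated from their title group means with a correlation of -0.20, and from their description group means with 0.59. With 2 pairs the numbers were not taken to pair the libraries. The replicate block gave 0 calls by title, and so did a crossed pairing, chosen after seeing the data.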
